A study of Homo sapiens with 12 samples.

Results

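Collagens and laminins are the main chain families of the extracellular matrix, and 62 of the 60671 genes counted in LS180 cells encode their chains or the matrix proteins of cartilage. They were taken by gene symbol: 44 collagen chain genes, 12 laminin chain genes, and the cartilage matrix genes ACAN, MATN1, MATN2, MATN3, COMP and HAPLN1. LS180 is an established human colorectal cancer line. Its 3 derivatives carry doxycycline-inducible GFP, wild-type SOX9 or M303, a shortened SOX9. Each line was sequenced without doxycycline and after 24 h at 0.5 µg/ml doxycycline, with 2 libraries in each of the 6 groups. GFP is the control for doxycycline and for making a foreign protein. Each construct sat in a line of its own, so the construct and the line that carries it cannot be told apart in a comparison between lines. The labels speak of duplicates and do not say that these came from separate cultures, so the tests measure the spread between these libraries, which may be technical.

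Collagen chains wind in threes into a triple helix, as homotrimers or as mixed trimers. Types I, II, III, V and XI form fibrils, type IX sits on the surface of cartilage fibrils, type IV builds the network of the basement membrane, and types XIII and XVII span the cell membrane. Each laminin joins an alpha, a beta and a gamma chain. These trimers form the basement membrane sheet under an epithelium and are bound by integrins. SOX9 is a transcription factor that drives chondrocyte formation, where with SOX5 and SOX6 it switches on COL2A1, COL9A1, COL11A2 and ACAN. In the intestine it is found in the crypt, in stem, progenitor and Paneth cells. Whether its cartilage targets also respond in gut cells is the question that the gene set addresses.

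The libraries held 31012775 to 48529770 counts. SOX9 itself stood at 357 to 405 CPM (counts per 1000000 counts of the scaled library size) in the 6 uninduced and the 2 induced GFP libraries, at 818 and 867 CPM in the induced M303 libraries, and at 712 and 761 CPM in the induced SOX9 libraries. Its count pools the cell's own transcript with whatever part of a construct's transcript aligns to the gene. All 9 epithelial markers of the labelled cell type, among them EPCAM, KRT20, CDX2 and MUC2, were above 1 CPM on average, and their summed level was 9674 to 11800 CPM in a library, most of it KRT8. The induced SOX9 libraries were the lowest of the 12 for KRT20 (2.78 and 3.33 CPM against 6.64 to 12.6 in the other 10), MUC2 (20.7 and 24.8 against 53.1 to 78.6), CDX2 (125 and 132 against 159 to 211), LGALS4 (752 and 758 against 1049 to 1238), VIL1, KRT8 and KRT18, whereas EPCAM and CDH1 lay within the range of the others. These markers moved with the SOX9 comparison, and their part in the results below was not tested. The other lists summed to 0.898 to 2.11 CPM for 8 fibroblast genes (TCF21 at 0 in all libraries), 6.84 to 9.95 CPM for 5 smooth muscle and pericyte genes, 0.0827 to 0.575 CPM for 5 endothelial genes, 0.402 to 1.14 CPM for 4 Schwann and glial genes (S100B at 0) and 1.92 to 4.24 CPM for 5 blood and immune genes (CD3E at 0). In bulk RNA, fewer cells of a kind and less RNA per cell cannot be told apart.

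Most of the cartilage genes were silent or nearly so. Of the 62 genes, 34 had enough counts to be tested: 22 collagens, 11 laminins and MATN2. The other 28 had at most 12 counts in any library. Among them, 6 collagens had no count in any of the 12 libraries: COL2A1, COL9A1, COL11A1, COL19A1, COL22A1 and COL24A1. A count of 0 allows up to 3 counts, which is 0.0618 to 0.0967 CPM depending on the library, for counting error only. This limit takes counts as independent. Mates were counted singly, so a fragment can add more than 1 count, and the limit is then higher. A mean of at least 1 CPM was reached by 18 genes and at least 10 CPM by 10 genes.

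**Figure D1:**
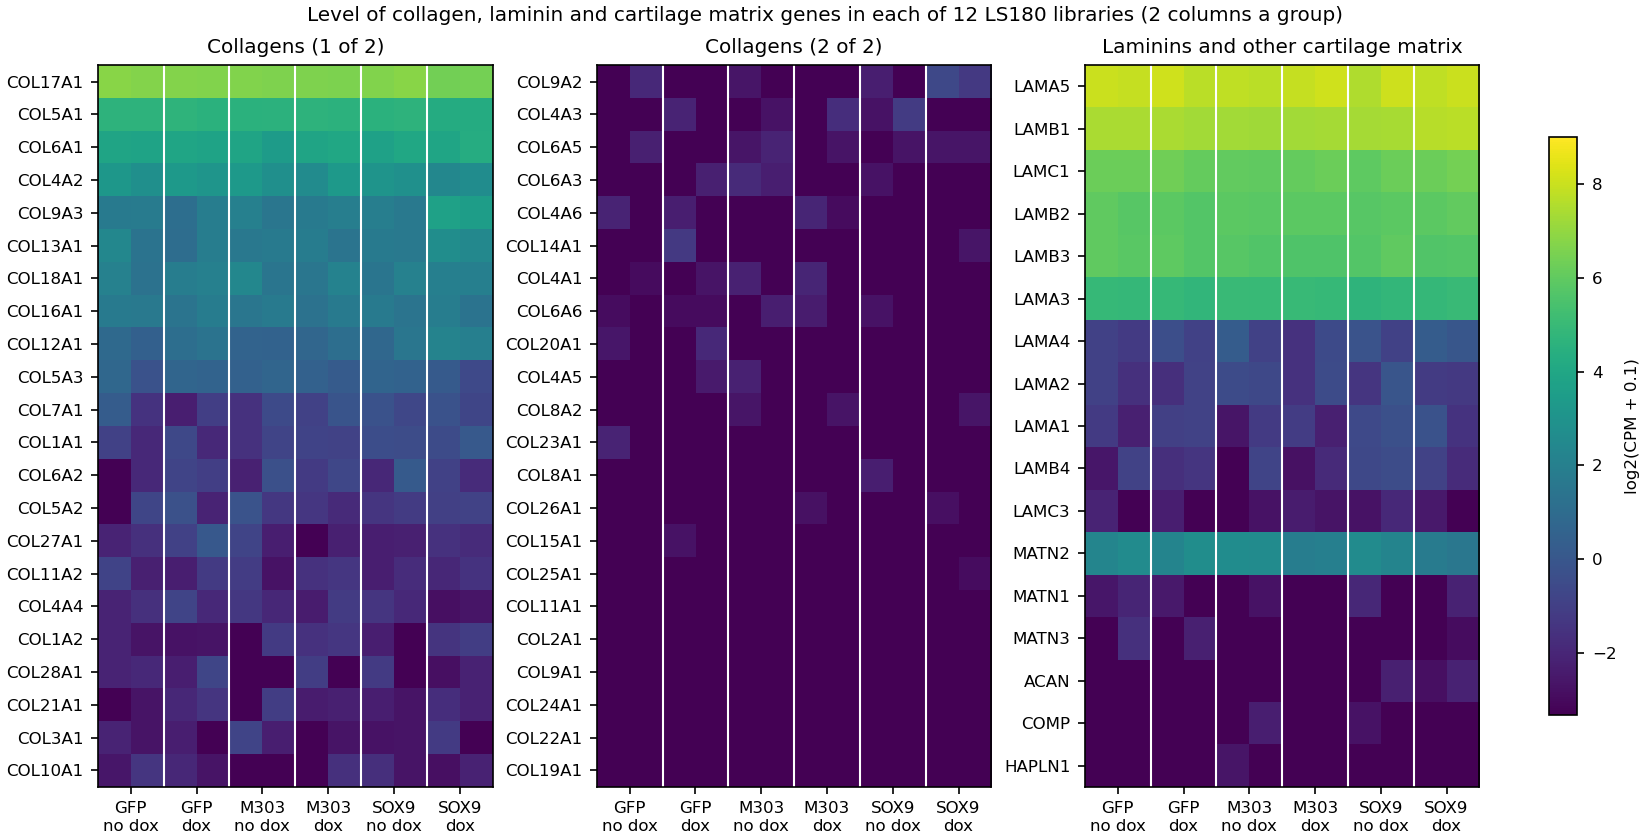
Level of collagen, laminin and cartilage matrix genes (rows) in each of the 12 libraries (columns, 2 a group), in colour as log2(CPM + 0.1), for the collagens in 2 panels and for the laminins with the cartilage matrix genes in the third. The laminins LAMA5 and LAMB1 and the collagen COL17A1 are bright in every library, COL9A3 is brighter in the 2 induced SOX9 libraries, and the whole second collagen panel is near 0.

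Induction of SOX9 moved 3 of the 34 tested genes. COL9A3, a chain of cartilage type IX collagen, rose 3.59-fold, and LAMB1, the laminin beta 1 chain, rose 1.28-fold. COL17A1, the transmembrane collagen of hemidesmosomes, fell to 0.797 of its uninduced level. Over all 18219 genes tested, 2.97% passed in the same comparison, 1.81% as higher and 1.16% as lower, by edgeR's quasi-likelihood test at a Benjamini-Hochberg adjusted p under 0.05. The median log2 fold change of the 34 genes was 0.18 and that of all genes was 0.0059. Of the 34, 22 were above 0, beside 9267 of all 18219. Among the 34, COL9A2 and COL3A1 would not have passed the filter on low counts without the induced SOX9 libraries, so the filter favoured a rise in them. COL3A1 had 16 and 0 counts there, and its other high count, 16, was in replicate 1 of uninduced M303.

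No gene of the set was called on M303 or on GFP induction. Of the 34 genes, edgeR called 0 on M303 induction, where 0.00549% of all genes passed, and 0 on GFP induction, where 0% passed. An unadjusted p under 0.05 was reached by 2 of the 34 with M303 (MATN2 and COL28A1), against 3.63% of all genes, and by 0 with GFP, against 3.18% of all genes, and DESeq2 called 0 of the genes in both. The median log2 fold change of the 34 genes was -0.04 with M303 and -0.03 with GFP. The uninduced SOX9 line against the uninduced GFP line gave 0 calls of 34 (background 0%; 1 gene, COL6A2, at an unadjusted p under 0.05, against 4.75% of all genes; 0 with DESeq2). The uninduced M303 line against the uninduced GFP line also gave 0 (background 0.00549%; 2 genes, LAMB1 and LAMC1, at an unadjusted p under 0.05, against 6.09% of all genes; 0 with DESeq2).

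**Figure D2:**
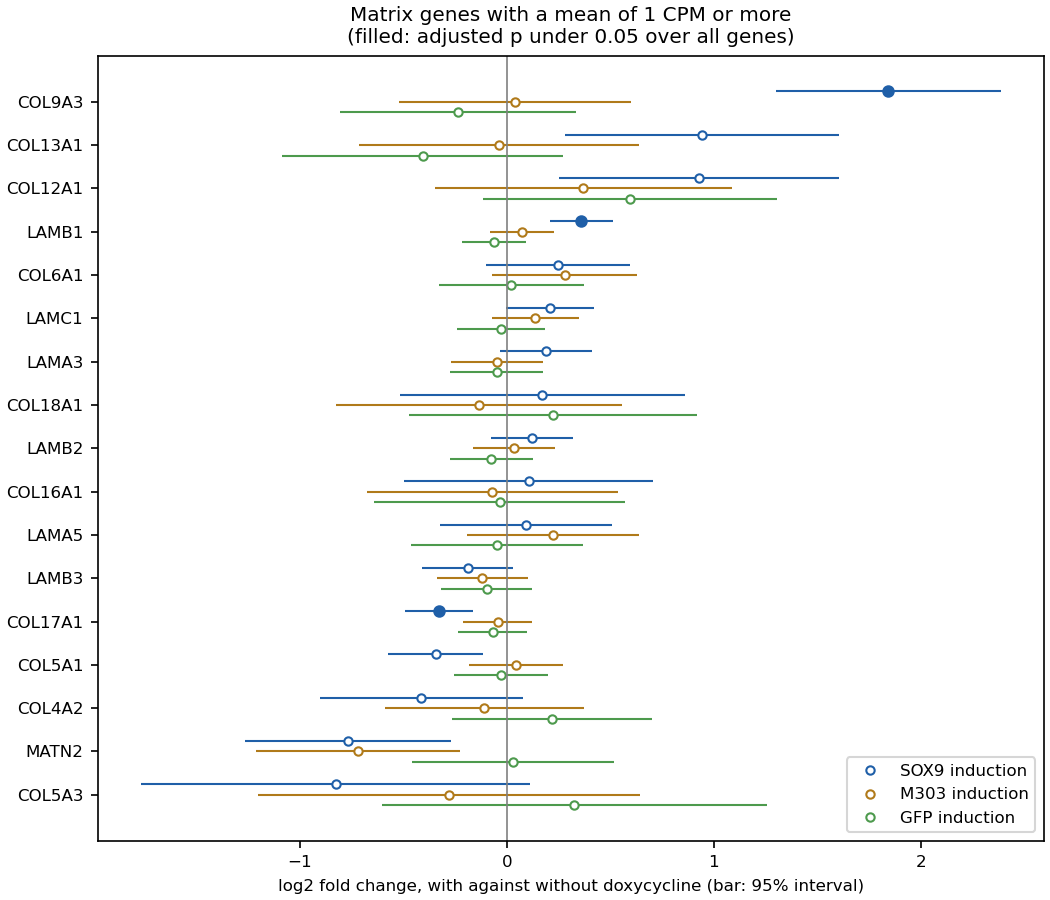
Log2 fold change with against without doxycycline (horizontal axis) of genes with a mean of at least 1 CPM, for SOX9, M303 and GFP induction, with 95% intervals as bars and filled points for an adjusted p under 0.05. The 3 filled points are COL9A3, LAMB1 and COL17A1 on SOX9 induction, and the intervals of all 3 for M303 and for GFP include 0.

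COL9A3 (ENSG00000092758, hg38 chromosome 20, 62816244 to 62841159, plus strand) encodes the alpha 3 chain of type IX collagen. In the uninduced libraries it stood at 3.29 and 3.44 CPM in the GFP line, 4.06 and 2.75 CPM in the M303 line, and 3.801 and 3.01 CPM in the SOX9 line. With doxycycline it was 2.12 and 3.61 CPM in the GFP line, 3.17 and 3.82 CPM in the M303 line, and 13.1 and 11.3 CPM in the SOX9 line. Both induced SOX9 libraries lay far above the other 10, whose range was 2.12 to 4.06 CPM, and those 10 overlapped one another across lines and treatments.

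The log2 fold change of COL9A3 on SOX9 induction was 1.84 (SE 0.26, n = 2 libraries a group, edgeR adjusted p = 0.000136), with a 95% interval of 1.30 to 2.39. It was 0.04 (SE 0.27) on M303 induction and -0.24 (SE 0.27) on GFP induction, both with an edgeR adjusted p of 1. The difference between inductions was tested as an interaction. SOX9 exceeded M303 by 1.80 on the log2 scale (SE 0.37, edgeR adjusted p = 0.0235) and GFP by 2.08 (SE 0.38, edgeR adjusted p = 0.00489). COL9A3 was the 1 gene of 34 that passed in each of these comparisons. Against M303, 0.489% of all genes passed, 0.357% as higher, and against GFP 0.895% passed, 0.631% as higher. Its SOX9 induction and its excess over GFP passed in each of the 20 alternatives run. The excess over M303 lost its call without any 1 of 5 libraries: replicate 1 of uninduced M303 (1.497, adjusted p = 0.202), replicate 1 of induced M303 (1.67, adjusted p = 0.114), replicate 2 of uninduced SOX9 (1.65, adjusted p = 0.101), and replicate 1 (1.69, adjusted p = 0.154) or replicate 2 (1.90, adjusted p = 0.0555) of induced SOX9. The SOX9 gene count rose in both lines, by 1.00 (SE 0.07) on the log2 scale with SOX9 and by 1.14 (SE 0.07) with M303.

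The counts had no strand, and 155 exon bases of COL9A3 overlap TCFL5, a transcription factor gene on the opposite strand. TCFL5 changed by -0.14 (SE 0.12, edgeR adjusted p = 0.686) on SOX9 induction.

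The partner chains of type IX collagen did not reach a comparable level. COL9A1 had 0 counts in all 12 libraries. COL9A2 had 26 and 10 counts in the induced SOX9 libraries, 4 and 0 in the uninduced SOX9 libraries, 0 and 6 in uninduced GFP, 2 and 0 in uninduced M303, and 0 in all 4 induced GFP and M303 libraries. Both induced SOX9 libraries were thus the highest of the 12 for COL9A2, at 0.527 and 0.314 CPM against at most 0.167 CPM elsewhere. Its fitted log2 fold change of 2.89 had a standard error of 1.68 (edgeR unadjusted p = 0.0955, adjusted p = 0.478), so the difference was not resolved at this depth. COL9A2 passed the filter on low counts only through the induced SOX9 libraries.

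**Figure D3:**
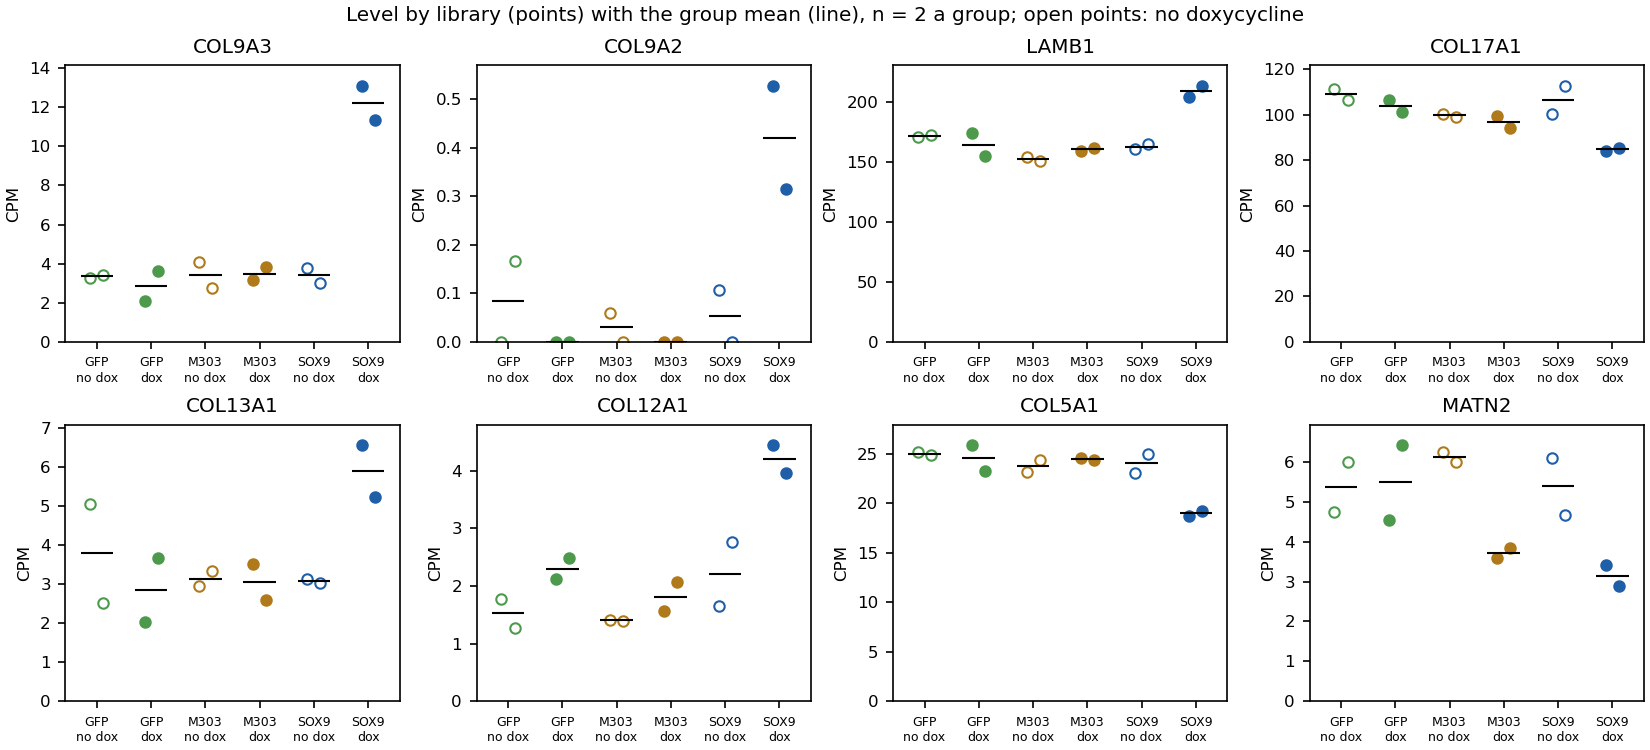
Level in CPM (vertical axis, from 0) of 8 genes in each library (points; open without, filled with doxycycline) with the mean of each group (line), 2 libraries a group. COL9A3, COL9A2, LAMB1, COL13A1 and COL12A1 are highest in both induced SOX9 libraries, and COL17A1, COL5A1 and MATN2 are lowest there.

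The remaining cartilage genes were at or near 0. Of the 12 genes in the cartilage set (the type II, IX, XI and XXVII collagens with ACAN, MATN1, MATN3, COMP and HAPLN1), 4 could be tested: COL9A2, COL9A3, COL11A2 and COL27A1. COL2A1 and COL11A1, the major and a minor chain of cartilage fibrils, had no count. ACAN, the aggrecan core protein, had 10 counts over all libraries, and COMP and HAPLN1 had 6 and 2. MATN1 and MATN3, 2 matrilins of cartilage, had 22 and 13 counts. COL11A2 stayed between 0.0533 and 0.460 CPM, and the fitted change was 0.42 on the log2 scale (SE 1.197, edgeR adjusted p = 0.931) on SOX9 induction. COL27A1 stayed between 0 and 0.937 CPM, with 0.96 (SE 1.19, edgeR adjusted p = 0.811).

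A chondrocyte marker list of 8 genes, in which COL9A3 was included, summed to 2.19 to 13.2 CPM in a library, and COL9A3 was its only gene above 1 CPM on average. SOX5, a partner of SOX9 in cartilage, was at 0 in 10 libraries, at 0.0602 CPM in 1 uninduced M303 library and at 0.162 CPM in 1 induced SOX9 library. SOX6 stayed between 0 and 0.730 CPM, with the 2 highest values, 0.730 and 0.722 CPM, in the induced SOX9 libraries. Its log2 fold change was 1.19 on SOX9 induction (SE 0.92, edgeR adjusted p = 0.647) and 2.97 on M303 induction (SE 1.28, edgeR adjusted p = 1).

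Laminins gave most of the signal in the set, with 80.5% of the summed CPM of the 62 genes over the 12 libraries. Per length, as RPKM (CPM per kilobase of merged exons), the mean levels, from the highest down, were LAMB1 (21.1), LAMA5 (16.8), COL17A1 (14.3), LAMB3 (11.7), LAMB2 (8.57), LAMC1 (8.57), COL6A1 (2.80), COL5A1 (2.10) and LAMA3 (2.05). Ranges of neighbours overlapped between libraries except from LAMB3 (lowest 10.5) to LAMB2 (highest 9.70) and from LAMC1 (lowest 7.39) to COL6A1 (highest 3.76). Within every single library, however, LAMB1 exceeded LAMA5 and COL17A1 exceeded LAMB3. LAMA3 and LAMB3 are chains found in the laminin of hemidesmosomes. LAMA5, with LAMB1 or LAMB2 and LAMC1, forms the main laminins of the intestinal basement membrane. These chains were expressed in every library, whereas LAMA1, LAMA2, LAMA4, LAMB4 and LAMC3 stayed near 0. LAMA5 made up 86.6% to 89.9% of the summed alpha chain RPKM. It shares 244 exon bases with ADRM1.

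LAMB1 (ENSG00000091136, hg38 chromosome 7, 107923799 to 108003187, minus strand) encodes the beta 1 chain, which pairs with the gamma 1 chain in most basement membrane laminins. Without doxycycline it stood at 171 and 173 CPM in the GFP line, 154 and 151 CPM in the M303 line, and 161 and 165 CPM in the SOX9 line. With doxycycline it was 174 and 155 CPM with GFP, 159 and 162 CPM with M303, and 205 and 214 CPM with SOX9. The induced SOX9 libraries were above the other 10, whose range was 151 to 174 CPM.

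LAMB1 rose by 0.36 on the log2 scale on SOX9 induction (SE 0.07, 95% interval 0.21 to 0.51, edgeR adjusted p = 0.00631). Without replicate 2 of induced SOX9 the call was lost (0.32, adjusted p = 0.164). The excess over GFP induction was 0.42 (SE 0.10, edgeR adjusted p = 0.062), just short of the threshold, and it passed with DESeq2, with library totals alone, with a filter on a mean of 50 counts and without replicate 1 of induced GFP. The excess over M303 induction was 0.29 (SE 0.10, edgeR adjusted p = 0.491). LAMB1 shares 70 exon bases with DLD on the opposite strand, which changed by -0.06 (SE 0.08, edgeR adjusted p = 0.839).

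Within the beta chains, the balance shifted towards LAMB1 in the induced SOX9 libraries. Its share of the summed beta chain RPKM was 56.5% and 56.0% there and 47.6% to 51.1% in the other 10 libraries. LAMB3, the beta chain of the hemidesmosome laminin, took 23.9% and 23.4% there and 26.8% to 31.7% elsewhere. Neither share was tested. LAMB3 itself changed by -0.19 (SE 0.11, edgeR adjusted p = 0.462), and LAMB2 by 0.12 (SE 0.10, edgeR adjusted p = 0.657).

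Other laminin chains did not pass either. LAMC1 gave 0.21 (SE 0.10, edgeR adjusted p = 0.375), LAMA3 gave 0.19 (SE 0.11, adjusted p = 0.47) and LAMA5 gave 0.09 (SE 0.18, adjusted p = 0.902). LAMA5 was uneven between replicates, at 186 and 268 CPM in the uninduced SOX9 line.

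**Figure D4:**
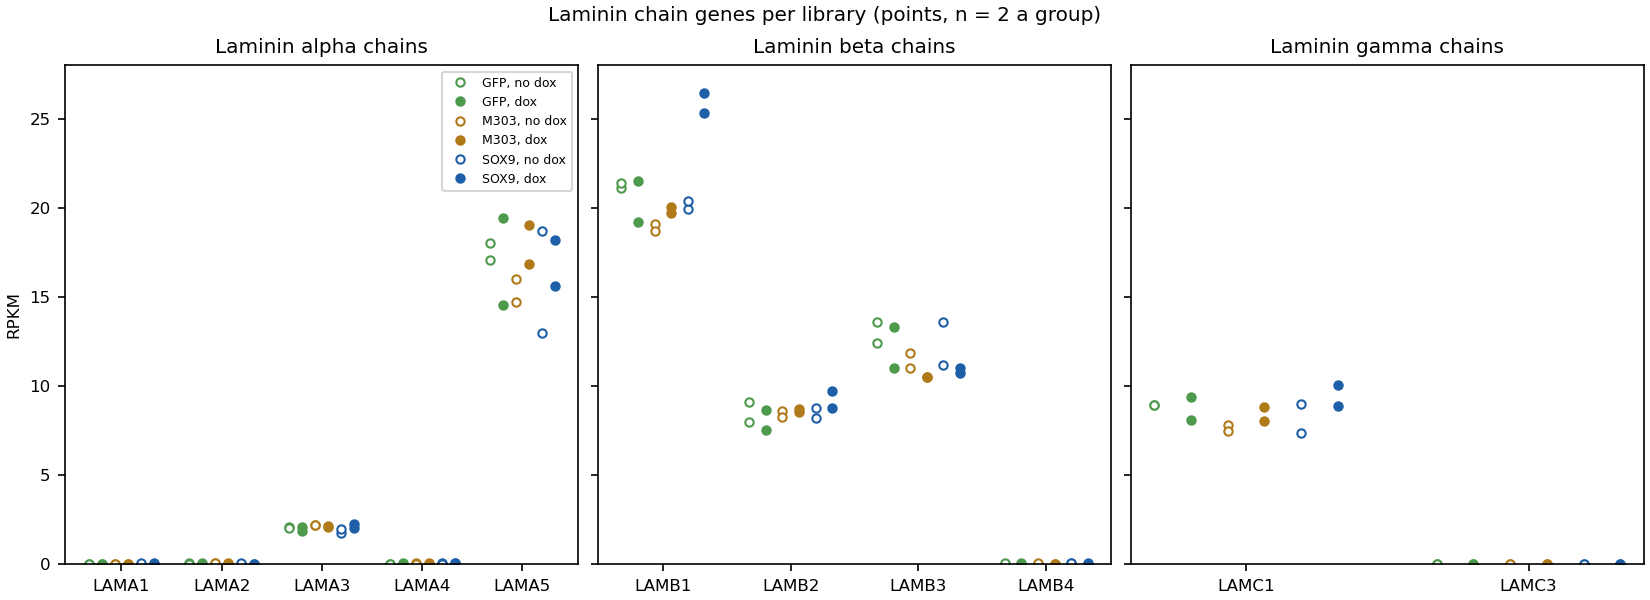
Level per length in RPKM (vertical axis, shared by the panels) of laminin chain genes in each library (points, 2 a group; open without, filled with doxycycline). LAMB1 is highest in the 2 induced SOX9 libraries, at 25.3 and 26.4 RPKM, against 18.7 to 21.5 RPKM in the other 10, and LAMA1, LAMA2, LAMA4, LAMB4 and LAMC3 lie near 0.

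COL17A1 (ENSG00000065618, hg38 chromosome 10, 104031286 to 104085880, minus strand) was the collagen with the highest level. Its product spans the membrane of basal epithelial cells and binds laminin at the hemidesmosome. Without doxycycline it stood at 112 and 106 CPM in the GFP line, 100.4 and 99.1 CPM in the M303 line, and 100.2 and 113 CPM in the SOX9 line. With doxycycline it was 106 and 101.3 CPM with GFP, 99.3 and 94.1 CPM with M303, and 84.2 and 85.5 CPM with SOX9. Both induced SOX9 libraries were below the other 10, the lowest of which was an induced M303 library.

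COL17A1 fell by 0.33 on the log2 scale on SOX9 induction (SE 0.08, 95% interval -0.49 to -0.16, edgeR adjusted p = 0.0242). The call was lost in a fit of the 2 SOX9 groups alone (adjusted p = 0.0573), without replicate 2 of uninduced SOX9 (-0.24, adjusted p = 0.323), and without replicate 1 (-0.32, adjusted p = 0.212) or replicate 2 (-0.35, adjusted p = 0.171) of induced SOX9. The SOX9 response differed from that to M303 by -0.28 (SE 0.11, edgeR adjusted p = 0.579) and from that to GFP by -0.26 (SE 0.11, edgeR adjusted p = 0.493). COL17A1 made up 52.7% of the summed collagen CPM in both induced SOX9 libraries and 56.9% to 63.2% in the others.

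The 250 bases before the RefSeq start sites of LAMB1 and COL17A1, both called on SOX9 induction, are shown because their levels moved in opposite directions (RefSeq, GRCh38.p14, given 5′ to 3′ on the gene's strand). Both strands were searched for short forms of the SOX family motif, with matches in capitals. The first form was AACAAT. The next was ACAAAG, and the last was ACAATG, which can overlap the first by the letters that both hold.
LAMB1: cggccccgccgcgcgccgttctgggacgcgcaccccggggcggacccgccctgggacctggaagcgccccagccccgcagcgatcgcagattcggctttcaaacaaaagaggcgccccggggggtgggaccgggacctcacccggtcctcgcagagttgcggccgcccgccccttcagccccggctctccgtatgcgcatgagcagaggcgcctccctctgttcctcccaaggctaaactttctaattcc
COL17A1: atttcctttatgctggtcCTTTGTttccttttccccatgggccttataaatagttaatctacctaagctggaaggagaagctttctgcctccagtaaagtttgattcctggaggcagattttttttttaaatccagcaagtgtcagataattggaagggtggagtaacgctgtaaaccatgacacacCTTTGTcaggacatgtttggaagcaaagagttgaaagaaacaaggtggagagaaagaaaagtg

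The LAMB1 window (chr7:108003162-108003411, minus strand) had a GC content of 70.4% and no match, and its last 26 bases lie inside the LAMB1 gene of the annotation used for counting. The COL17A1 window (chr10:104085881-104086130, minus strand) had a GC content of 40.4% and 2 matches to ACAAAG on its reverse strand, which begin 232 and 63 bases before the start. Promoters were found for 45 of the 62 genes, and 6 of the 45 held at least 1 match. COL9A3 had no promoter in the reference used, so it was not searched. Among all 35116 promoter windows of the same length, 25.6% held at least 1 of these forms. The share was 8.98% for the first form (AACAAT), 13.7% for the next and 9.29% for the last. A match is a run of letters and not a bound site.

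With the called genes included, 8 of the 34 had an edgeR unadjusted p under 0.05 on SOX9 induction, against 13.8% of all genes. Of the 34, 7 had one under 0.01, against 6.19%. The groups with and without SOX9 induction did not overlap for 21 of the 34, against 44.7% of all genes. Both induced SOX9 libraries were above the other 10 for 6 genes (COL12A1, COL13A1, COL9A2, COL9A3 and LAMB1 among them; 7.7% of all genes) and below them for 4 (COL17A1, COL4A4, COL5A1 and MATN2; 7.23% of all genes). COL9A2 passed the filter on low counts only through the induced SOX9 libraries, so its place there was fixed by the filter. COL13A1, COL12A1, COL5A1 and MATN2 are described next because their unadjusted p was under 0.01, a choice made after their values were seen.

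COL13A1, a transmembrane collagen of cell junctions, was at 6.57 and 5.25 CPM with SOX9 induced and at 2.04 to 5.06 CPM in the other 10 libraries. Its log2 fold change was 0.94 (SE 0.32, edgeR adjusted p = 0.14), and it passed with no filter on low counts (adjusted p = 0.0394) and in a fit of the 2 SOX9 groups alone (adjusted p = 0.0419). COL12A1, which binds to the surface of fibrils, was at 4.44 and 3.96 CPM with SOX9 induced and at 1.28 to 2.76 CPM elsewhere. Its log2 fold change was 0.93 (SE 0.32, edgeR adjusted p = 0.156), beside 0.37 (SE 0.34) with M303 and 0.59 (SE 0.34) with GFP.

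COL5A1, a chain that starts and limits the growth of type I fibrils, was at 18.7 and 19.2 CPM with SOX9 induced and within 23.1 to 25.9 CPM in the other 10 libraries. Its log2 fold change was -0.34 (SE 0.11, edgeR adjusted p = 0.113), beside 0.04 (SE 0.11) with M303 and -0.03 (SE 0.11) with GFP. MATN2 is a matrilin of many tissues besides cartilage, and its values with SOX9 and with M303 lay close together. Without doxycycline it was at 6.10 and 4.67 CPM in the SOX9 line and at 6.26 and 6.00 CPM in the M303 line. With doxycycline it was at 3.41 and 2.89 CPM with SOX9, at 3.59 and 3.85 CPM with M303, and at 4.55 and 6.42 CPM with GFP. The 4 libraries with an induced SOX9 form were the lowest of the 12. The log2 fold change of MATN2 was -0.77 (SE 0.24, edgeR adjusted p = 0.0973) with SOX9, -0.72 (SE 0.24, edgeR unadjusted p = 0.00633, adjusted p = 1) with M303 and 0.03 (SE 0.23) with GFP. The SOX9 and M303 responses differed by -0.05, with a 95% interval of -0.75 to 0.65.

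Apart from COL9A3, the outermost fold changes of the set belonged to genes with few counts. After COL9A2 the highest were COL1A2 at 2.48 (SE 1.53, edgeR adjusted p = 0.507) and COL9A3, and the lowest were COL4A4 at -2.05 (SE 1.30, adjusted p = 0.524), COL28A1 at -1.001 (SE 1.70, adjusted p = 0.872) and COL6A2 at -0.89 (SE 1.03, adjusted p = 0.795). COL1A2, COL4A4, COL28A1 and COL6A2 did not exceed 36 counts in a library. Among the 15 genes with a mean of at least 1 CPM that were not called on SOX9 induction, the 95% intervals ran from as low as -1.77 to as high as 1.61.

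By structural class, the SOX9 calls came from 1 of 5 tested fibril-associated collagens (COL9A3), 1 of 2 transmembrane collagens (COL17A1) and 1 of 4 laminin beta chains (LAMB1). Among the 8 tested fibrillar collagens 0 were called. With 2.97% of all genes called, classes this small say nothing about a class as such. COL6A1, a chain of the beaded filaments of type VI collagen, ranged from 10.7 to 20.0 CPM and gave 0.25 (SE 0.17, edgeR adjusted p = 0.582).

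Several collagens were measured with 1 chain far above the partners it is known to wind with. COL4A2 had 202 to 375 counts in every library, and COL4A1, with which it forms the common type IV trimer, had 0 to 6. Per length, their median levels were 0.394 RPKM for COL4A2 and 0 RPKM for COL4A1. COL6A1 had a median of 2.77 RPKM beside 0.0672 for COL6A2 and 0 for COL6A3. COL5A1 had a median of 2.18 RPKM beside 0.0431 for COL5A2 and 0.199 for COL5A3. The induced SOX9 libraries had COL9A3 at 2.71 and 2.34 RPKM with COL9A2 at no more than 0.125 RPKM and COL9A1 at 0. Of the laminin chains, LAMA5, LAMB1, LAMB2, LAMB3 and LAMC1 were each above 7 RPKM in every library. LAMA3, the alpha partner of LAMB3, was at 1.75 to 2.24 RPKM.

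Genes that act with these chains were examined as lists. The lists were chosen with earlier results of these data known, so the share called is not a test of a list. On SOX9 induction edgeR called 1 of 32 tested genes of collagen synthesis and modification, 4 of 12 basement membrane partners, 4 of 17 receptors, 4 of 15 other cartilage genes and 2 of 12 matrix turnover genes, where 2.97% of all genes were called and 1 of 32 is close to that share. The median log2 fold changes of these lists were 0.10, 0.31, 0.05, 0.02 and 0.22, beside 0.0059 for all genes. On M303 induction the median of the basement membrane partners was 0.25, and the median of their differences between SOX9 and M303 was -0.02. Tests of the difference from M303 induction called 1, 2, 0, 0 and 0 genes of the lists, in the same order, with 0.489% of all genes passing. Those of the difference from GFP induction called 1, 3, 1, 0 and 2, with 0.895% of all genes passing. CREB3L1, a membrane-bound transcription factor for collagen secretion, was at 85.6 and 98.3 CPM in the uninduced SOX9 libraries and at 41.9 and 43.7 CPM after induction, a fall of 1.10 on the log2 scale (SE 0.09, edgeR adjusted p = 1.3e-07). The fall with SOX9 exceeded that with M303, which was -0.31 (SE 0.09), by -0.80 (SE 0.13, edgeR adjusted p = 0.00202).

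All 4 called basement membrane partners rose. SMOC1 and SMOC2, secreted calcium-binding proteins of basement membranes, rose from 15.5 and 13.6 CPM to 43.4 and 46.6 CPM (SMOC1) and from 43.4 and 47.2 CPM to 110 and 115 CPM (SMOC2). Their log2 fold changes were 1.63 (SE 0.13, edgeR adjusted p = 1.3e-07) and 1.31 (SE 0.09, edgeR adjusted p = 1.45e-08), and both exceeded the response to M303, SMOC1 by 1.44 (edgeR adjusted p = 0.000342) and SMOC2 by 0.81 (edgeR adjusted p = 0.00202). SMOC2 on M303 induction was 0.50 (SE 0.09, edgeR unadjusted p = 1.94e-05, adjusted p = 0.177). TINAGL1, a laminin-binding basement membrane protein, rose by 0.68 (SE 0.09, edgeR adjusted p = 7.08e-05). PXDN, the peroxidase that cross-links type IV collagen, rose by 0.42 (SE 0.10, edgeR adjusted p = 0.0164), and this call was lost without replicate 1 of uninduced SOX9 or either replicate of induced SOX9.

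The 4 called receptors also rose, and no receptor was called in the difference from M303 induction. BCAM, a receptor for the laminin alpha 5 chain, rose by 0.99 (SE 0.20, edgeR adjusted p = 0.00576), and SDC4, ITGA6 and CD44 rose by 0.33, 0.26 and 0.25. Each of these 4 calls was lost without 2 or more single libraries, replicate 2 of induced SOX9 among them. ITGA6 was not called in 9 and CD44 in 12 of the 20 alternatives, which for both included leaving out any 1 of 8 libraries. Among the other cartilage genes HAPLN3, a link protein, rose by 0.97 (SE 0.20, edgeR adjusted p = 0.00594), and SLC26A2, a sulfate transporter, rose by 0.55. FMOD, the collagen-binding proteoglycan fibromodulin, fell by 0.85 (SE 0.16, edgeR adjusted p = 0.00413), and PAPSS2, which makes the sulfate donor, fell by 0.31. These 4 calls were each lost without replicate 2 of uninduced SOX9. They were also lost without replicate 1 (HAPLN3, FMOD), replicate 2 (SLC26A2) or either replicate (PAPSS2) of induced SOX9, and for PAPSS2 without replicate 1 of uninduced SOX9, with adjusted p as high as 0.419. In the turnover list TIMP3, a matrix-bound inhibitor of metalloproteinases, rose by 0.66 (SE 0.11, edgeR adjusted p = 0.00106), and MMP14, a membrane-bound collagenase, rose by 0.47 (SE 0.08, edgeR adjusted p = 0.00107).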

How the data were processed

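Raw read counts per gene were deposited by the authors for 12 LS180 libraries. The submitters' processing notes name STAR 2.7.0a, hg38 and featureCounts. Per the file headers, featureCounts was version 2.0.1 and its annotation was Ensembl release 101, and neither a paired-end nor a strand option was set. Mates were thus counted singly (76.6% of counts from 2 to 50 were even), and reads over 2 genes or several places were dropped. Counting intervals cover counting error only.

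The test was edgeR's robust quasi-likelihood F-test (edgeR 4.0.16, R 4.3.3; TMM, filterByExpr). A single model of all 12 libraries, with 1 mean a group, left 6 residual degrees of freedom. p-values were Benjamini-Hochberg adjusted over 18219 genes and called under 0.05, in 8 comparisons. The method was tested on simulated data. Symbols came from a reference table of gene names for 42020 of the genes (69.3%). CPM and RPKM were computed from the counts.

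The genes and lists were chosen with earlier results of these data known. Named genes were those called in any comparison, the cartilage set, the 10 with the highest mean RPKM, the 3 highest and 3 lowest on SOX9 induction, and up to 5 called genes of each further list. One selected item is not reported here. Alternatives were DESeq2 1.42.0, other scalings and filters, the compared groups alone, the replicate block, each library left out, and, added after seeing the data, counts divided by 2.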

Additional observations from a re-analysis of the deposited data

Results flagged for a closer look

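COL9A3 responded differently to wild-type SOX9 than to M303 and than to GFP. Its log2 fold change on SOX9 induction exceeded that on M303 induction by 1.8 and that on GFP induction by 2.08, both past the threshold in edgeR's test of the difference between inductions (adjusted p = 0.0235 and 0.00489). These comparisons share the SOX9 libraries, and the call against M303, unlike that against GFP, was lost without some single libraries, as given above. The samples came in groups of 2, too few to test a single library as an outlier.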

How the results depend on the processing

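None of the results reversed under the alternatives, 20 for most of them. Between SOX9 and GFP induction the number of called matrix genes rose from 1 to 2, with LAMB1 beside COL9A3, under DESeq2, library totals only and a mean count of at least 50. Leaving out 1 library at a time gave 1 to 3 called matrix genes on SOX9 induction, 0 to 1 for SOX9 against M303, 1 to 2 for SOX9 against GFP, and 0 in the other 5 comparisons. Single-gene values were followed across the alternatives, together with the order of gene levels. Of these, 554 gave the same outcome, 53 lost the call, and 6 gained it. The 6 were COL13A1 on SOX9 induction in 2 alternatives and the excess of LAMB1 over GFP in 4.

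Over all genes, the SOX9 induction count of 541 fell to 301, 270 and 231 without uninduced SOX9 replicate 2, induced SOX9 replicate 1 or induced SOX9 replicate 2. Without these last 2 libraries in turn, the SOX9 against GFP count of 163 fell to 108 and 95, and without the latter the SOX9 against M303 count of 89 fell to 57. Without a low count filter these counts were 270 and 147. The other 5 comparisons, with 0 or 1 called, gave 4 to 22 without the filter and 0 to 3 with DESeq2 or the compared groups alone. Without uninduced GFP replicate 1, GFP induction gave 9, M303 against GFP 12, the uninduced SOX9 line against GFP 39, and the uninduced M303 line against GFP 56. Fewer libraries leave fewer degrees of freedom, and the low count filter then let in more genes. It kept 19897 without uninduced GFP replicate 1, against 18219 with all libraries. The cause of these changes was not tested.

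With the replicate block the matrix genes called stayed at 3 on SOX9 induction and at 1 in each difference from M303 and GFP, the calls of ITGA6, CD44 and PAPSS2 ended, and all genes called on SOX9 induction were 452. Replicate numbers did not mark a deviation of the same sign in all groups, since correlations of replicate differences between groups ran from -0.51 to 0.43. Some pairs of groups thus shared deviations that a block on replicate number does not remove, and their source was not tested. Depth limits the 16 tested genes under 1 CPM, and a group left with 1 library was assumed to vary like the others.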
